A study of Mus musculus with 5 samples.

Results

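In uninjured mouse skeletal muscle, 753 cells were chosen by the detection of *Hsd11b1*, *Cmklr1*, *Mme*, *Vtn*, *G0s2*, *Bmp4* and *Hmcn2*, out of 4632 cells of the same library that met the same limits (16.3%, exact 95% interval 15.2 to 17.4) and 34439 cell barcodes in all 5 libraries. A chosen cell had at least 1 unique molecular identifier (UMI, one counted RNA molecule) of 3 or more of these 7 genes, and fewer than 3 of *Saa1*, *Trf*, *Dlk1*, *Thrsp*, *Cp* and *Adamtsl2*. All cells had 350 to 8000 detected genes, under 20% of UMIs on mitochondrial genes and at least 1000 UMIs. Of the 854 cells with 3 or more of the 7 genes, 101 were left out because they also had 3 or more of the 6 excluded genes.

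The study sequenced RNA of single GFP+ cells sorted from skeletal muscle of Prx1Cre;mTmG mice on a C57Bl/6 background, at d0 without injury and at d3 and d5 after tibial fracture or after polytrauma, in which the muscle is injured together with the bone. In these mice Prx1-driven Cre switches a reporter from Tomato to GFP in mesenchymal cells of limb origin and their descendants, and all 5 libraries carry both alleles. The sort therefore leaves out muscle fibres, satellite cells, and most blood and vessel lining cells, and GFP reports the history of a cell and not its present *Prrx1* expression. Each condition has 1 library pooled from a pair of mice, so no difference was tested, no p-value is given, and all intervals cover counting error only. The uninjured library holds 5653 barcodes and 18247307 UMIs, of which 5367 barcodes met the limits on genes and mitochondrial UMIs.

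Skeletal muscle holds mesenchymal progenitors between its fibres, often called fibro/adipogenic progenitors, which lay down matrix, release signals to muscle stem cells and can become fat or fibrous tissue. Several of the 7 genes act at the cell surface or in the matrix around such cells. *Hsd11b1* encodes the enzyme that turns inactive glucocorticoid into its active form inside the cell. *Cmklr1* encodes the receptor of the attractant chemerin, and *Mme* (neprilysin, CD10) a membrane peptidase that cuts small peptide signals. *Vtn* encodes vitronectin, an adhesive plasma and matrix protein, *Hmcn2* the large matrix protein hemicentin-2, *Bmp4* a bone morphogenetic protein, and *G0s2* an inhibitor of adipose triglyceride lipase.

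The label of progenitor was checked against marker genes of the cell types the sort could hold. Of the chosen cells, 713 had 2 or more of the 5 fibro/adipogenic and mesenchymal progenitor (FAP/MP) genes *Prrx1*, *Cxcl12*, *Pdgfra*, *Ly6a* and *Cd34*. At equal depth, with the same number of UMIs drawn from every cell, 55.9% of the chosen cells did. The share was 44.7% in the other uninjured cells, so this count alone separates the chosen cells only in part. Summed over all chosen cells these 5 genes reached 2727 CPM, a unit that divides the UMIs of genes by all UMIs of the cells, against 2248 CPM in the other 3879 uninjured cells, and *Ly6a* was the most abundant in both at 980 and 979 CPM. In other progenitors, a group described below that was selected on these genes, the sum was higher at 3360.4 CPM with *Ly6a* at 1511, and inside the same gate *Prrx1* was lower in the chosen cells, none of the 5 was higher and the median log2 ratio was -0.19. At equal depth 68.1% of other progenitors had 2 or more of the 5 genes. *Pdgfra* stood at 238 CPM (221 to 256) against 141 (135 to 147), whereas *Prrx1*, the gene behind the Cre driver, was lower at 86.4 CPM (76.2 to 97.4) against 144 (138 to 151). Pericyte genes (*Cspg4*, *Des*, *Mylk*, *Rgs5*, *Myh11*, *Notch3*) summed to 197 CPM against 1448, and 18 chosen cells had 3 or more of the 6. At equal depth 1.73% of the chosen cells had 2 or more, against 17.4% of the other uninjured cells and 0.894% of other progenitors. The sum was 104 CPM in other progenitors (2462 cells with 2 or more FAP/MP genes and few pericyte or tenocyte genes, described below), and all 6 genes were 1.5-fold or more higher in the chosen cells than there. With the chosen cells held to the same gate, *Cspg4* (36.7 against 18.1 CPM) and *Rgs5* (a ratio of 3.74, from 0.593% of cells against 0.934%) stayed higher and *Myh11* was lower, and their part in the basement membrane values below was not tested. Tenocyte genes (*Scx*, *Tnmd*, *Kera*, *Mkx*, *Thbs4*) summed to 326 CPM against 1307, and 26 chosen cells had 2 or more of the 5. At equal depth 1.86% of the chosen cells did, against 8.64% of the other uninjured cells and 0% of other progenitors, whose gate excludes such cells. In other progenitors the sum was 70.3 CPM, and the 3 genes tested (*Tnmd*, *Kera*, *Thbs4*) were 1.5-fold or more higher in the chosen cells than there. With the chosen cells held to the same gate, none of the 3 was higher and *Tnmd* was lower. The blood cell genes *Ptprc* and *Itgam*, the Schwann cell gene *Sox10*, the vessel lining gene *Emcn* and the muscle stem cell genes *Pax7*, *Myod1* and *Myf5* were at 0 UMIs in the chosen cells. The Schwann cell list summed to 7.88 CPM against 5.07, mostly from *Cdh19* at 6.24 against 3.61 (a ratio of 1.73, and 1.11 inside the progenitor gate described below). The vessel lining list summed to 66.0 CPM against 45.1, of which *Tek* made up 57.1, and the blood list to 11.5 against 48.9, with *Cd68* the most abundant at 7.88. Also at 0 UMIs were the fat cell genes *Plin1*, *Cidec*, *Lep* and *Retn* and the bone forming cell genes *Sp7*, *Ibsp* and *Dmp1*. Of the genes at 0, *Itgam*, *Pax7*, *Myod1*, *Myf5*, *Plin1*, *Cidec* and *Lep* were at 0 in the other uninjured cells too. Their absence therefore does not set the chosen cells apart from the rest of the sort.

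Cell quality differed in part between the chosen cells and the rest. The median was 3828 UMIs and 1469 genes per chosen cell, against 3580.0 UMIs and 1356 genes in the other cells. The mitochondrial share had a median of 2.59% against 3.30%. The heat shock genes *Hspa1a*, *Hspa1b* and *Dnajb1*, which cells switch on during enzymatic tissue digestion, made up on average 1.42% of the UMIs of a chosen cell and 0.603% in the other cells, and 24.6% of the chosen cells lay at or below the library median of this share. Chosen cells made up 9.24% of the shallowest of 4 equal depth classes (1002 to 2526 UMIs) and 18.7, 20.4 and 16.7% of the deeper ones. Barcodes that also occur in another library numbered 19 among the chosen cells (2.52%) and 73 among the others (1.88%). Before the limits, the uninjured library shared 405 barcodes with the d3 fracture library and 525 with the library labelled d5 fracture. Without shared barcodes, all 25 genes named below against the other uninjured cells stayed past 1.5-fold.

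The 7 genes lie on 6 chromosomes, with *Hsd11b1* and *G0s2* as neighbours. On GRCm38, *Hsd11b1* (ENSMUSG00000016194) spans chr1:193221634-193264075 and *G0s2* (ENSMUSG00000009633) chr1:193272161-193273217, both on the minus strand, and the start sites that RefSeq lists for them are 30828 bases apart. *Cmklr1* (ENSMUSG00000042190) lies at chr5:113612354-113650426, *Mme* (ENSMUSG00000027820) at chr3:63241537-63386030 and *Vtn* (ENSMUSG00000017344) at chr11:78499091-78502324. *Bmp4* (ENSMUSG00000021835) lies at chr14:46383520-46390669 and *Hmcn2* (ENSMUSG00000055632) at chr2:31314415-31460738. A second pair of neighbours that was high together in the chosen cells was *Col4a1* and *Col4a2*, the main chains of basement membrane collagen, which run in opposite directions from start sites 21 bases apart on chromosome 8. The promoters of both pairs are shown because each pair shares a stretch of the genome and is described together below. Each is 300 bases from RefSeq (GRCm38.p6), from 250 bases before to 50 after the start, read 5′ to 3′ on the strand of the gene, with capitals at matches to CCAAT (the CCAAT box) or GGGCGG (the GC box) on either strand:
*Hsd11b1*, chr1:193242311-193242610, minus strand: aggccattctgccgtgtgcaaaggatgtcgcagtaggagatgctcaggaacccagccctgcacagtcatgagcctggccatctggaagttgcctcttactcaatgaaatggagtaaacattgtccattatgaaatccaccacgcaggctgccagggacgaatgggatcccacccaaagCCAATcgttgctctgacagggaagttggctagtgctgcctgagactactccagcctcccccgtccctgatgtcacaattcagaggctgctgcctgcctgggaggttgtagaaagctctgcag
*G0s2*, chr1:193273139-193273438, minus strand: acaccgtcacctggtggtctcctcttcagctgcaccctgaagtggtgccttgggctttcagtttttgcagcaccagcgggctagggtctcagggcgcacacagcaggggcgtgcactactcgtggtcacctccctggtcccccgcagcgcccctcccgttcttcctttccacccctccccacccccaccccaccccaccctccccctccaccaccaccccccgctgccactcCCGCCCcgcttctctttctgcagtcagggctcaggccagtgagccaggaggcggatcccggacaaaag
*Col4a1*, chr8:11312777-11313076, minus strand: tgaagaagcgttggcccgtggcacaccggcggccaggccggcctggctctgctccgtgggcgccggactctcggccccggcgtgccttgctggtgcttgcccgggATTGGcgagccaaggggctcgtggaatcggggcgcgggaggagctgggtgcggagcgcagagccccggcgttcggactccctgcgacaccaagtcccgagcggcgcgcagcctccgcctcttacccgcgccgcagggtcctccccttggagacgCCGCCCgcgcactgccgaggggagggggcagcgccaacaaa
*Col4a2*, chr8:11312555-11312854, plus strand: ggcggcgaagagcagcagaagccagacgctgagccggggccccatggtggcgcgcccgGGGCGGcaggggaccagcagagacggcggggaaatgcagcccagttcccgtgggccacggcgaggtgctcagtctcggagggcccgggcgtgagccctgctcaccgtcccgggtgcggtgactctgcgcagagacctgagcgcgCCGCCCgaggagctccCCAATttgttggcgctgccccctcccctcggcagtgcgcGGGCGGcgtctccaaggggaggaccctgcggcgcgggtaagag

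The *Hsd11b1* window held 1 CCAAT match and no GC box, and its GC content was 54.7%. The *G0s2* window held 1 GC box and no CCAAT match, with 66.7% GC, so these neighbours share neither of the searched matches. The *Col4a1* and *Col4a2* windows overlap by 78 bases, hold 74.0% and 73.7% GC, and each had 1 CCAAT match, with 1 GC box for *Col4a1* and 3 for *Col4a2*, of which 1 lies in the overlap. TATAAA was in none of the 4 windows. These letters are common: 37.4% of 32851 mouse promoter windows of the same length hold CCAAT, 35.7% GGGCGG and 13.6% TATAAA.

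Because the 7 genes chose the cells, their levels are a description of the choice. *Hsd11b1* was detected in 71.0% of the chosen cells at 454 CPM (430 to 479), against 10.8% and 76.9 CPM (72.4 to 81.5) in the other uninjured cells. *Bmp4* and *Hmcn2* came next in detection, in 61.0% and 60.6% of the chosen cells at 262 and 246 CPM. *G0s2* was in 58.8% at 343 CPM and *Vtn* in 53.4% at 268 CPM. The receptor and the peptidase were sparser, with *Mme* in 45.0% at 155 CPM and *Cmklr1* in 36.1% at 114 CPM. In the other cells these 6 genes stood between 19.1 CPM (*Mme*) and 64.1 CPM (*G0s2*). Exactly 3 of the 7 were detected in 360 chosen cells, 4 in 209 and 5 or more in 184. The pairs found in most chosen cells were *Hsd11b1* with *G0s2* (318 cells, 42.2%), with *Bmp4* (316 cells) and with *Hmcn2* (316 cells), and the rarest pair was *Cmklr1* with *Mme* (112 cells, 14.9%).

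Whether the genes are found together was read from cells chosen without the gene in question, after 1000 UMIs had been drawn from every cell to equalise depth. Among 85 cells with 3 or more of the other 6 genes, 36.5% (26.3 to 47.6) had a UMI of *Hsd11b1*, against 9.43% (8.60 to 10.3) of the remaining 4547. *G0s2* was in 29.7% (20.5 to 40.2) of 91 such cells against 8.04% (7.26 to 8.87), and *Bmp4* in 20.0% (13.3 to 28.3) of 120 against 8.16% (7.37 to 8.99). *Vtn*, *Mme* and *Cmklr1* were likewise higher, at 15.7%, 12.1% and 9.86% against 7.58%, 3.90% and 3.56%, with intervals that did not overlap. For *Hmcn2* the intervals overlapped, with 14.9% (8.93 to 22.8) against 9.25% (8.42 to 10.1). Without thinning the shares were larger for all 7, for example 60.6% against 15.1% for *Hsd11b1*. The remaining cells include pericyte-like and tenocyte-like cells, whose clusters, described below, had *Hsd11b1* in 0.401% and 0.906% of cells at this depth. The comparison was not repeated within progenitors. The 7 genes had been picked from these same cells, so this pattern is not independent evidence of a cell type.

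**Figure D1:**
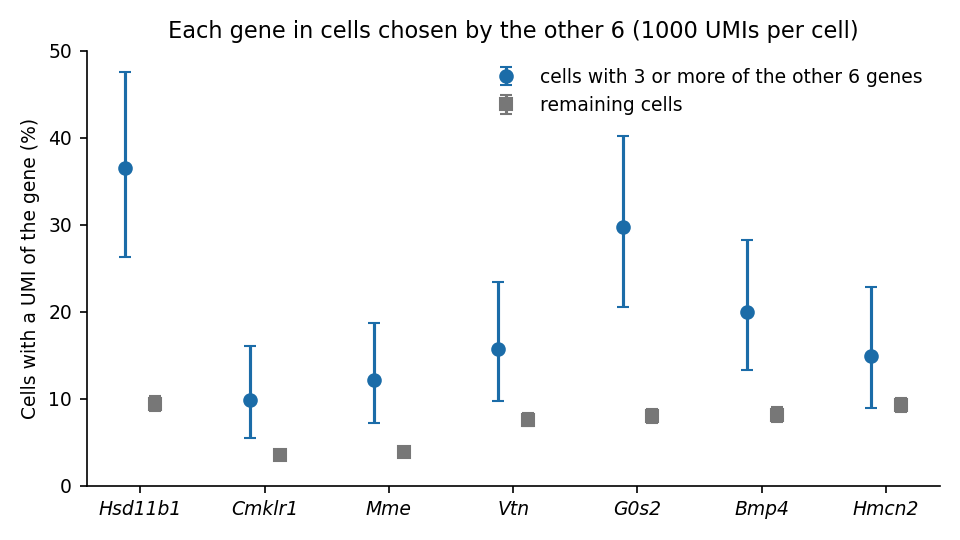
Share of uninjured cells with a UMI of each gene (y axis, %, 1000 UMIs per cell), in cells with 3 or more of the other 6 genes (circles) and in the remaining cells (squares), with exact 95% intervals. The circles lie above the squares for all 7 genes, and the intervals overlap for *Hmcn2* alone (8.93 to 22.8 against 8.42 to 10.1%).

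Clusters of the 4632 uninjured cells, computed from variable genes without the 13 genes of the rule, placed 43.0% and 37.2% of the chosen cells in the first 2 of 9 clusters. The first, led by *Cxcl14*, *Ngfr*, *Steap4*, *Smoc2* and *Col15a1*, held 324 of them, 46.8% (43.1 to 50.6) of its 692 cells. The other, led by the interferon-induced genes *Rtp4*, *Ifi211* and *Iigp1*, held 280, or 39.2% (35.6 to 42.9) of 714 cells. Both were FAP/MP-like, with 4 of the 5 genes of that list on the high side, although interferon-induced genes led the second. The cluster led by *Mrgprg*, *Smpd3* and *Stmn4*, with the highest *Pi16* level of the 9 clusters (3938 CPM), held 50 chosen cells among 992 (5.04%). The pericyte-like cluster, led by *Map3k7cl* and *Olfr558*, held 10 among 748 (1.34%), and the tenocyte-like one, led by *Col22a1* and *Kera*, 10 among 331 (3.02%).

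Within the pericyte-like cluster, a UMI of *Hsd11b1* was found in 0.401% of cells at 1000 UMIs per cell, against 36.6% in the *Cxcl14* cluster. The median cell of the *Cxcl14* cluster had fewer UMIs (3358 against 4345). *Vtn* had the highest share of the 7 genes in the pericyte-like cluster, 4.01%, against 18.2% in the *Cxcl14* cluster. Whether the UMIs in the pericyte-like cluster are expression or background was not tested. The *Cxcl14* and *Rtp4* clusters differed in the rule genes as well, with *Hsd11b1* in 36.6% and 19.2% of cells, *G0s2* in 29.3% and 10.1% and *Cmklr1* in 10.4% and 3.78%. *Mme* (11.8% and 10.2%), *Bmp4* (16.3% and 14.7%) and *Hmcn2* (18.8% and 22.0%) were closer. Among the 15 nearest neighbours of a chosen cell, 54.0% on average were chosen cells, against 10.2% for the other cells. This share was 43.2% for chosen cells with 3 of the 7 genes, 70.1% for those with 5 or more, and 24.2% for unchosen cells with 2.

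**Figure D2:**
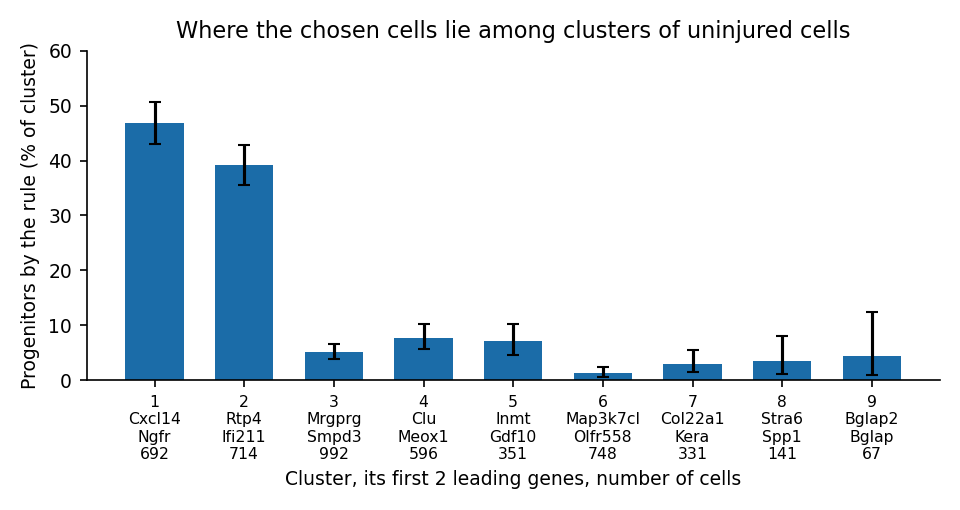
Share of each cluster of uninjured cells made up of chosen cells (y axis, %, exact 95% intervals), with the first leading genes and the number of cells of each cluster under the axis. The *Cxcl14* and *Rtp4* clusters hold 46.8% and 39.2% chosen cells, and each of the 7 other clusters holds under 8%.

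Against the other 3879 uninjured cells, genes outside the rule were compared by the ratio of CPM, with 1.5-fold in either direction as the mark among 10646 genes with at least 50 UMIs over both groups. In all, 874 genes were past it on the higher side (8.21%) and 1717 on the lower side (16.1%), with a median log2 ratio of 0.00 over all genes. Since the same cells served to choose the members and to measure them, these counts describe the contrast that the rule set up. Of the 15 genes with the highest ratios among well detected genes, *Vwa1*, *Lamb1*, *Smoc2* and *Col15a1* encode proteins of the pericellular matrix and basement membrane. *Smoc2*, a secreted calcium-binding matricellular protein, stood at 1859 CPM (1811 to 1908) in the chosen cells and 610 (597 to 622) in the others, a ratio of 3.05, and was detected in 95.8% against 48.1% of cells. *Lamb1*, a laminin chain, was at 239 CPM (222 to 257) against 76.4 (71.9 to 81.0). *Col15a1*, a basement membrane collagen, reached 709 CPM (680 to 740) against 245 (237 to 253). *Vwa1*, which binds perlecan, had the highest ratio (3.92) at a lower level of 65.7 CPM (56.9 to 75.4) against 16.7 (14.7 to 19.0).

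Receptors, signals and enzymes made up most of the other high genes. *Cxcl14*, a chemokine, was at 548 CPM against 191, and *Nppc*, the precursor of C-type natriuretic peptide, at 221 against 80.5. The product of *Mme* cleaves natriuretic peptides. The membrane protein genes *Eng* (endoglin, a co-receptor of the TGF-beta family), *Gfra1* (a receptor of GDNF) and *Sema5a* (a transmembrane semaphorin, a guidance ligand) had ratios of 2.83, 2.83 and 3.08. The enzymes *Ces1d*, a carboxylesterase, *Adh1*, an alcohol dehydrogenase that also oxidises retinol, and *Dpep1*, a dipeptidase of the cell surface, had ratios of 2.89, 2.68 and 2.77. *Ms4a4d*, *AW112010* and *Rtp4* complete the 15, at 246, 263 and 80.1 CPM. The 10 lowest ratios belonged to *Pln*, *Map3k7cl*, *Lmod1*, *Tagln*, *Nrip2*, *Pcp4l1*, *Acta2*, *Rgs4*, *Sncg* and *Sorbs2*, among them contractile genes of pericytes and smooth muscle. *Acta2* was at 216 CPM (200 to 233) against 2876 (2848 to 2904), and *Tagln* at 97.2 against 1405. In cells at or below the median heat shock share, all 25 genes stayed past 1.5-fold, with log2 ratios of 2.19 for *Smoc2*, 2.11 for *Col15a1* and 2.33 for *Cxcl14*.

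The basement membrane, the thin sheet of type IV collagen, laminin, nidogen and perlecan around fibres and vessels, was the group with the most high members. Of 18 genes tested from the list of 19, 13 were 1.5-fold or more higher in the chosen cells than in the other uninjured cells and 2 were lower, beside 8.21% and 16.1% of all genes, with a median log2 ratio of 0.91. *Col4a1* stood at 1039 CPM (1003 to 1076) against 445 (434 to 456), and *Col4a2* at 517 (492 to 543) against 257 (248 to 265). *Lama2*, the laminin chain of muscle basement membrane, was at 247 against 101 CPM, *Hspg2* (perlecan) at 697 against 334 and *Nid2* at 56.5 against 21.8. The lower members were *Hmcn1*, a relative of *Hmcn2* (3.28 against 6.11 CPM), and *Agrn*, a proteoglycan of the nerve and muscle contact (4.60 against 10.1). *Lamb2*, *Col18a1* and *Col4a5* had log2 ratios of -0.39, -0.26 and -0.18. The median of the list was 0.96 in cells at or below the median heat shock share and 0.87 after thinning to 1000 UMIs.

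A second comparison held both sides to 1 gate of 2 or more FAP/MP genes, fewer than 3 pericyte genes and fewer than 2 tenocyte genes. The gate held 674 chosen cells and 2462 other cells, called other progenitors here. The other progenitors are still a mixture. Their bone forming cell genes summed to 89.8 CPM, against 1.97 in all chosen cells, and their blood cell genes to 31.3 against 11.5. The part of such cells in the gated values was not tested. Of 9519 genes tested, 568 were higher in the chosen cells (5.97%) and 951 lower (9.99%). With all 753 chosen cells against the same 2462, the counts were 558 (5.8%) and 862 (8.96%) of 9617. In that version the tendon genes *Thbs4* and *Fmod* were among the 15 highest, but inside the gate *Fmod* had a log2 ratio of -1.52 and *Thbs4* of 0.44, so the gated values are given for the progenitor comparison. Values without a mention of the gate are against all other uninjured cells, which include pericytes and tenocytes. Basement membrane genes were again high, 10 of 18 higher and 1 lower, beside 5.97% and 9.99% of all genes, with a median of 0.66. *Col4a1* and *Col4a2* both had a log2 ratio of 0.99, *Lamb1* 1.24, *Col15a1* 1.07, *Lama2* 0.88 and *Hspg2* 0.79.

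**Figure D3:**
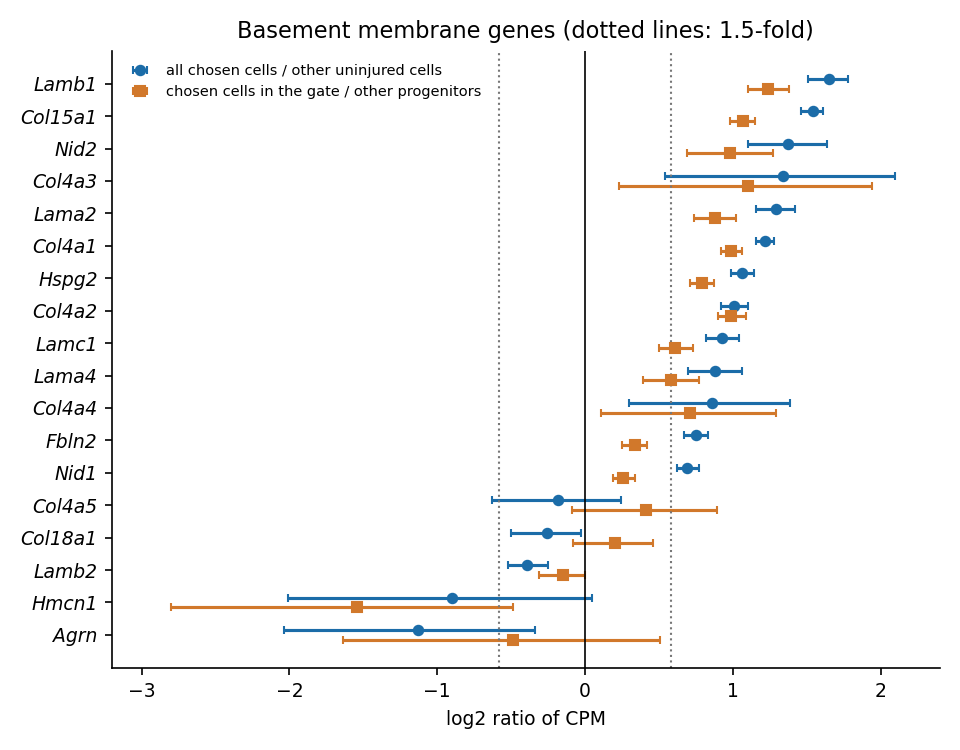
log2 ratio of CPM (x axis) for 18 basement membrane genes in the uninjured library, for all chosen cells against the other cells (circles) and for chosen cells inside the gate against other progenitors (squares), with exact 95% intervals and dotted lines at 1.5-fold. Circles of 13 genes and squares of 10 lie beyond the right dotted line, and *Lamb2*, *Hmcn1* and *Agrn* lie left of 0 in both.

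The 15 genes with the highest ratios over other progenitors, ranked with all chosen cells, also held receptors and membrane proteins. *Lifr*, the receptor of leukemia inhibitory factor, stood at 66.2 CPM inside the gate and 23.4 in other progenitors (interval of the log2 ratio 1.20 to 1.80). *Vwa1* had a log2 ratio of 1.65, *Fbln7* (fibulin-7, a matrix adhesion protein) 1.48, *Sema5a* 1.42, *Sept4* 1.40 and *Gfra1* 1.29. *Gpm6b* and *Tspan9*, membrane proteins, both had 1.26, *Ggt5*, which processes glutathione conjugates and leukotrienes, 1.20, *Nppc* 1.17 and *Crispld2* 1.01. *Hspa1a* was among the 15 as well, at 9525 CPM against 4172.

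Genes of the *Pi16* state, known from progenitors around vessels that also carry *Dpp4* and *Cd55*, were lower than in other progenitors. All 6 genes of that list were lower inside the gate, with a median log2 ratio of -1.18, beside 9.99% of all genes. *Pi16* itself, a secreted peptidase inhibitor, was at 782 CPM against 1915 (1886 to 1944), *Sema3c* at 55.7 against 225, *Anxa3* at 253 against 529 and *Dpp4* at 27.3 against 48.8. By cluster, *Pi16* was at 3938 CPM in the *Mrgprg* cluster. In the FAP/MP-like clusters led by *Clu* and *Inmt* it was at 409 and 459 CPM, below the chosen cells. The lower level of *Pi16* thus holds against the mixture and not against each part of it. A comparison without the *Mrgprg* cluster was not made. Against all other uninjured cells 3 of the 6 were lower with a median of -0.63, and -0.36 in cells at or below the median heat shock share. *Pi16* was nonetheless present: 57.4% of the chosen cells had a UMI of it, and 143 of the 753 had 3 or more of the 6 genes. The 15 lowest ratios also held *Postn* (periostin, 19.1 against 252 CPM), *Fn1* (fibronectin, 418 against 1520.2), *Col14a1* (59.8 against 245) and *Aspn* (asporin, 110 against 452). *Car8*, *Daglb*, *Ptx3*, *Sbsn*, *Efhd1*, *Emb*, *Ifi27l2a*, *Igfbp5* and *Tmem100* were also among them, with log2 ratios between -3.17 (*Car8*) and -1.65 (*Tmem100*).

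Many of these genes, but not each, stood further apart in cells with more of the rule genes. Inside the gate and with fewer than 3 excluded genes, *Smoc2* was at 352 CPM in 926 cells with none of the 7, then at 682, 1098, 1585 and 2018 with 1 to 4, and at 2342 with 5 or more. *Col15a1* went from 168 to 871 CPM over the same steps, *Cxcl14* from 87.6 to 806 and *Col4a1* from 338 to 1234. *Nppc* did not follow the steps, at 79.2, 66.8, 128, 276, 201 and 162 CPM, nor did *Pdgfra*, at 175, 218, 256, 267, 216 and 283. *Pi16* went the other way, from 2640.2 CPM through 1960.0, 1249, 927 and 791 to 523, and *Fn1* from 2269.6 to 236. Median depth was higher too, 3148 UMIs with none and 3979 with 5 or more, and so was *Hspa1a*, at 2935 and 11196 CPM, and the part of either in the other values was not tested. At the threshold itself, the 360 members with exactly 3 genes had 1553 CPM of *Smoc2* and 596 of *Col15a1*, and the 652 cells just outside with 2 genes had 1104 and 414. The levels thus changed on both sides of the threshold. On the side of the exclusion, the 68 members with 2 of the 6 excluded genes had 818 CPM of *Hsd11b1* and 469 of *Trf*, and the 46 cells with 3 of them had 999 and 645.

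**Figure D4:**
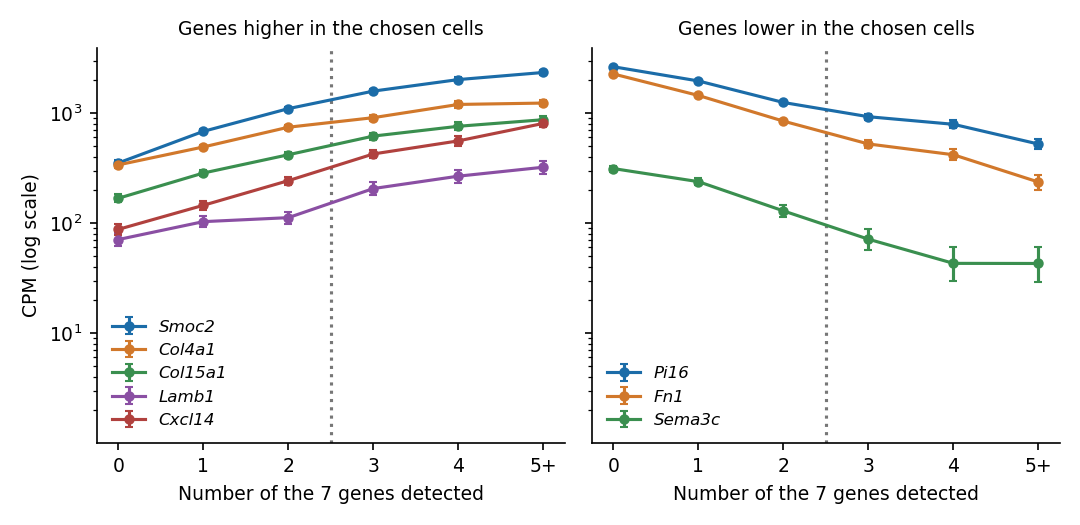
CPM on a log axis against the number of the 7 rule genes detected in a cell (x axis) for uninjured cells inside the progenitor gate, with exact Poisson 95% intervals and a dotted line at the threshold. *Smoc2*, *Col4a1*, *Col15a1*, *Lamb1* and *Cxcl14* are higher at each step (left), *Pi16* and *Fn1* are lower at each step and *Sema3c* ends at 43.0 and 42.9 CPM (right).

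The other genes of each rule gene's pathway were taken from lists. For *Hsd11b1*, 3 of 18 genes of glucocorticoid activation, receptors and targets were higher than in the other uninjured cells and none lower (median log2 ratio -0.03), beside 8.21% and 16.1% of all genes, and inside the gate 2 of 16 (-0.01), beside 5.97% of all genes. Each list below is to be read against these same shares. The one nearest to the enzyme, *H6pd*, which supplies it with reducing equivalents in the endoplasmic reticulum, was at 20.4 CPM (15.6 to 26.1) against 8.96 (7.48 to 10.7). *Zbtb16* (PLZF) was at 51.2 against 27.7 CPM and the kinase gene *Sgk1* at 431 against 280, both known to respond to glucocorticoid. Other known targets were within 1.5-fold, with log2 ratios of 0.38 for *Fkbp5*, 0.41 for *Tsc22d3*, -0.41 for *Per1* and -0.46 for *Mt1*. The receptor gene *Nr3c1* was at 108 CPM (97.0 to 121) against 95.7 (90.8 to 101), and *Hsd11b2*, the reverse enzyme, was at 1.31 CPM.

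For *Cmklr1*, the chemerin gene *Rarres2* was at 1003 CPM (968 to 1039.7) against 627 (615 to 641), and inside the gate the ratio was 1.35, under the 1.5-fold mark. The other chemerin receptors were low, *Ccrl2* at 13.8 CPM against 120 (a ratio of 0.858 inside the gate) and *Gpr1* at 0.985 against 3.54. Chemerin was first described as a retinoid response gene, and the retinoid genes were taken with it. *Aldh1a1* and *Aldh1a2*, which make retinoic acid, were at 102 and 41.0 CPM against 50.7 and 14.7, whereas *Aldh1a3* was at 6.90 against 25.9 and the binding protein gene *Crabp2* at 7.22 against 21.2. In all 5 of 17 genes were higher and 8 lower (median -0.21), and 2 and 5 of 16 inside the gate (-0.20). Among 8 other peptidase genes set beside *Mme*, *Ace* was higher at 170 against 96.6 CPM (median 0.00), and inside the gate *Anpep* (CD13) and *Dpp4* were lower (median -0.15). Among 12 vitronectin partners, *Plau* (urokinase) was at 128 CPM (116 to 142) against 79.6, *Itga8* was at 10.8 against 45.7 (a ratio of 0.977 inside the gate) and the median log2 ratio was -0.08. Inside the gate the vitronectin receptor chains *Itgav* and *Itgb3* were lower among 11 (-0.18).

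*G0s2* belongs to lipid storage. Its target *Pnpla2* was at 22.0 CPM against 40.9 (a ratio of 0.932 inside the gate), the lipid droplet coat gene *Plin2* at 116 (104 to 129) against 48.3 (44.8 to 52.0), and the lipases *Lipe* and *Mgll* at 9.52 against 4.86 and 21.3 against 53.8, so that 2 of 7 were higher and 3 lower (median -0.18), and 2 and 1 of 6 inside the gate (-0.09). Among 12 adipogenic genes *Lpl* was at 661 CPM (632 to 690) against 309 (300 to 318) and *Apoe* at 384 against 214. *Fabp4* was at 24.6 CPM against 15.9, but its UMIs came from 0.531% of the chosen cells and 1.96% of the others, so a handful of cells set that ratio. *Cebpb*, *Fabp5* and *Cd36* were lower (median 0.12). Inside the gate *Lpl* was higher and *Cebpb* and *Fabp5* lower among 11 (-0.10), and *Fabp4*, past the mark as well, was in 0.593% of the chosen cells and 0.690% of other progenitors. *Pparg*, the master factor of fat cells, was at 0.657 CPM, and *Adipoq* at 0.328.

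Among BMP ligands beside *Bmp4*, *Bmp5* and *Bmp7* were higher and *Bmp6* lower (6.24 against 13.6 CPM, a ratio of 0.732 inside the gate), and *Bmp2* was within 1.5-fold (164 against 136). *Bmp5* was at 159 CPM (145 to 174) against 69.2, a ratio of 2.30, and *Bmp7* at 22.7 (17.6 to 28.7), a ratio of 2.06. Several antagonists and feedback genes were lower, with *Fst* (follistatin) at 56.8 against 94.2 CPM, *Chrdl1* at 15.8 against 29.9, *Bambi* at 8.21 against 21.3 and *Smad6* at 3.94 against 6.39. The antagonist gene *Chrd* (12.5 against 10.1 CPM) and the feedback gene *Smad7* (60.7 against 67.1) were within 1.5-fold. The direct target *Id2* was at 148 against 263 CPM, and *Id1* and *Id3* had log2 ratios of -0.55 and -0.33. In all 2 of 22 BMP genes were higher and 8 lower (median -0.43), beside 8.21% and 16.1% of all genes, and inside the gate 2 and 7 (-0.20), beside 5.97% and 9.99%. WNT ligands and modulators held no higher gene among 13 and 9 lower ones (median -1.23), and none and 7 among 11 inside the gate (-1.10). *Sfrp4* was at 92.3 CPM against 240, *Wnt2* at 2.96 against 12.9 and *Wnt5a* at 11.8 against 19.7.

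In the fibrillar and elastic matrix the members went both ways. *Lum* and *Dcn*, small proteoglycans that bind collagen fibrils, were at 2516 and 20031 CPM against 1183 and 11464, and the collagen VI genes *Col6a1*, *Col6a2* and *Col6a3* at 1518, 1391 and 760 against 955, 906 and 391. *Col1a1* was at 2298 CPM against 3959.8, and *Fn1*, *Postn*, *Aspn*, *Col14a1*, *Fmod* and *Tnc* were lower too, giving 5 higher and 7 lower of 20 with a median of -0.10. That median was 0.18 in cells at or below the median heat shock share and 0.12 when 2 rule genes sufficed. Inside the gate 3 were higher and 7 lower (-0.25).

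Of 10 chemokine and cytokine genes 3 were higher and 1 lower than in the other uninjured cells (median 0.43), and 2 of 9 were higher inside the gate (median 0.00). *Ccl11* (eotaxin) was at 2713 CPM (2655 to 2772) against 1063 (1046 to 1079.9), *Cxcl12* at 591 against 325 and *Cxcl14* as given above. *Cxcl1*, at 3962 against 2794, was within 1.5-fold. None of 15 trophic genes, the factors that progenitors offer to muscle stem cells and nerves, was higher and 7 were lower (median -0.48), among them *Il6* at 207 against 536 CPM, *Il33* at 58.4 against 92.3 and *Ptn* at 47.3 against 166, and none and 8 of 14 inside the gate (-0.74). *Igf1* was at 389 against 293 CPM. Complement genes went 2 higher (*C1s1*, *C1ra*) and 5 lower of 11 (median -0.51), a median that was -0.05 in cells at or below the median heat shock share, and 1 and 6 inside the gate (-0.97).

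Of 26 transcription factors 3 were higher and 5 lower, close to the shares over all genes (8.21% and 16.1%). *Osr1*, a marker of embryonic muscle connective tissue progenitors, was at 44.7 against 22.2 CPM, and *Tcf7l2* (138 against 90.9) and *Ebf3* (29.2 against 18.2) were the other higher ones. *Prrx1*, *Foxc1*, *Foxc2* (at 0 UMIs in the chosen cells), *Twist2* and *Nr2f2* were lower (median -0.09), and inside the gate *Foxs1* was higher and *Prrx1*, *Foxc1* and *Twist2* lower among 24 (-0.19). Early response and heat shock genes were 4 higher of 14 against the other cells (*Egr1*, *Hspa1a*, *Hspa1b*, *Dnajb1*, median 0.43), and 5 inside the gate with *Ier2* (0.40). *Hspa1a* was at 9408 CPM (9299 to 9517) against 3862 (3829.8 to 3894), and the part of tissue digestion in the levels of other genes was not tested beyond the values in low heat shock cells above. Of 8 interferon genes *Ifit1*, *Irf7* and *Iigp1* were higher (median 0.41), a median that turned to -0.05 after thinning to 1000 UMIs, and inside the gate *Isg15* and *Iigp1* were (0.24).

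The chosen cells were also set beside the 142 uninjured cells with 3 or more of the 6 excluded genes. *Smoc2* was at 3766 CPM there, *Col15a1* at 1325, *Cxcl14* at 1857, *Lamb1* at 316 and *Col4a1* at 1145, all at or above the levels of the chosen cells, so these genes are not particular to the latter. *Hspa1a* was at 8963 CPM. *Hsd11b1* itself was at 1033 CPM in 93.0% of these cells, against 454 CPM in 71.0% of the chosen ones, and *G0s2* at 583 against 343. The other 5 rule genes were lower there, for example *Vtn* at 78.2 CPM and *Bmp4* at 134. *Igf1* was at 1012 CPM in the excluded cells and 389 in the chosen ones, *Dcn* at 31559 and 20031, and *Mdk* (midkine) at 492 and 125. Genes higher in the chosen cells than in these were *Ly6a* (980 against 372 CPM), *Fbln2* (561 against 235), *Pi16* (773 against 222) and *Ace* (170 against 95.8). The 1003 cells with 3 or more *Pi16* genes had 264 CPM of *Smoc2*, 97.7 of *Col15a1* and 24.2 of *Cxcl14*, and 2564 of *Fn1*.

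In the 4 libraries taken after injury the 7 genes were lower. Over all cells within the limits they summed to 608 CPM (596 to 619) at d0, 49.1 (47.8 to 50.5) at d3 after fracture, 45.1 (43.8 to 46.4) in the library labelled d5 fracture, 116 (113 to 119) in the one labelled d3 polytrauma and 52.5 (51.5 to 53.5) at d5 after polytrauma. *Hsd11b1* went from 143 CPM (137 to 148) to between 4.84 and 11.8, and *Hmcn2* from 92.1 to between 1.05 and 4.40. *Mme* was at 42.8 CPM at d0 and, in the order given, at 5.06, 9.82, 26.5 and 17.2 after injury, and *Vtn* at 88.1 at d0 and between 8.86 (d5 polytrauma) and 25.1 (labelled d3 polytrauma). Some genes outside the 7 were lower after injury too. *Cd34* was at 689 CPM at d0 and between 42.6 and 99.8 after injury, and *Pdgfra* at 158 and between 46.7 and 131, both highest after injury in the library labelled d3 polytrauma. Of the excluded genes, *Trf* was at 74.0 and between 5.31 and 11.2 and *Saa1* at 28.0 and between 0.143 and 1.96, but *Cp* was at 40.7 and, in the library labelled d3 polytrauma, 38.1, and *Dlk1* at 17.5 and, at d5 after polytrauma, 13.1. *Prrx1* was at 134 CPM at d0 and between 124 and 275, and *Cxcl12* at 371 and between 288 and 535. The 7 genes had been picked in the uninjured library, and lower levels elsewhere were also found for some genes not among them. After thinning to 1000 UMIs, the rule held for 177 of 4632 uninjured cells (3.82%, 3.29 to 4.41), 2 of 5589 at d3 after fracture (0.0358%), 1 of 6201 in the library labelled d5 fracture (0.0161%), 0 of 1468 in the one labelled d3 polytrauma (an upper limit of 0.251%) and 1 of 11941 at d5 after polytrauma (0.00837%). Without thinning the shares were 16.3, 2.97, 2.32, 17.0 and 3.04%, with median depths of 3640.0, 17963, 15688, 34949 and 15753 UMIs, so that the deepest library had the highest share before thinning and no such cell after it. The conditions of the libraries labelled d5 fracture and d3 polytrauma are uncertain, because their barcode numbers go against the cell numbers given for the study, and both are used as deposited. Shared barcodes went with the labels: the library labelled d5 fracture shared 508 with d3 fracture and 0 with either polytrauma library, and the one labelled d3 polytrauma shared 944 with d5 polytrauma and 0 with either fracture library. Fewer cells of this kind and less RNA of the 7 genes per cell cannot be told apart from summed levels, and with 1 library per condition neither can injury and library.

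**Figure D5:**
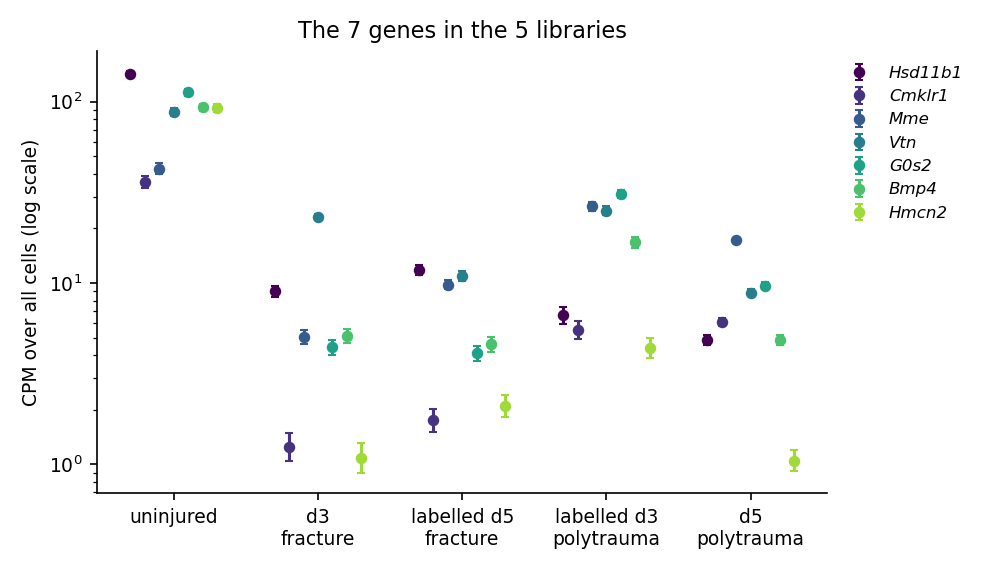
CPM on a log axis over all cells within the limits for each of the 7 rule genes in the 5 libraries, with exact Poisson 95% intervals. At d0 the genes lie between 36.0 (*Cmklr1*) and 143 CPM (*Hsd11b1*), and each gene is lower in all 4 libraries taken after injury.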

How the data were processed

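The authors aligned reads to mm10 with Cell Ranger (3.1.0 in the matrix headers) and deposited raw UMI counts per gene and barcode, without normalization. Seurat 3.1.2 is named in the submitters' processing notes. The uninjured library was used, with the other 4 libraries for the last comparison. The 7 genes, the lists and the rules were chosen with earlier results of these data known. UMIs were summed over cells and scaled to CPM. Ratios and their intervals are exact and conditional on both sums, a sum of 0 was held at 3 UMIs per group, and shares have exact Clopper-Pearson 95% intervals. Thinning drew 1000 UMIs per cell without replacement. Named genes had at least 50 CPM in the higher group and detection in 10% of its cells, without mitochondrial, ribosomal and predicted genes or the 13 rule genes, and were the 15 highest and 10 (other cells) or 15 (progenitors) lowest ratios. Some listed or ranked genes are not reported here. Listed genes are named with their list, and other genes in the comparison with excluded cells were chosen after their values were seen. Clusters used scanpy 1.11.5 (2000 variable genes, 20 components, resolution 0.5) on all 4632 cells, and lists were used to name them. Scrublet's automatic threshold called 4 of 5367 cells (0.0745%) and had not worked, so doublets were kept and the 256 highest scores left out as an alternative. Of the chosen cells 55 (7.30%) were among these, and 189 (4.87%) of the others. Positions came from GENCODE M21. The computation was tested on simulated data. Other software was Python 3.11.15, numpy 2.4.6, scipy 1.17.1 and pandas 2.3.3.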

Additional observations from a re-analysis of the deposited data

How the results depend on the processing

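With 1 library per condition no library could be left out. No paired analysis was possible because each condition has 1 library. Against the other uninjured cells, 24 of the 25 named genes stayed past 1.5-fold after thinning and 25 under each other alternative. Of the 30 named against other progenitors, 28 did after thinning and inside the gate, and 29 or 30 under each other alternative. The share of chosen cells was 3.82% after thinning to 1000 UMIs, 30.3% with at least 2 of the 7 genes, 8.48% with at least 4 and 18.1% among cells of 2000 to 8000 UMIs. Against the other cells, higher genes numbered 1335 after thinning, 445 with at least 200 UMIs, 5871 with no filter and 216 at a fold of 2, and lower ones 908, 2584 and 997 under the last 3. Against other progenitors these 3 gave 205, 4365 and 120 higher and 352, 1893 and 345 lower.

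List medians moved as follows, against other cells and then other progenitors where both moved. Thinning gave the *Pi16* list -1.49 and -2.11, complement -1.30 and -1.24 and WNT -1.69 against progenitors. It reversed interferon (-0.05 and -0.33) and, against progenitors, the tenocyte list (-0.60), *Fmod* (-1.20) and *Rtp4* (-0.15). With at least 2 genes, glucocorticoid was 0.13, fibrillar matrix 0.12, *Pi16* -0.32 and -1.05 and complement -0.30 and -0.36. With at least 4, *Pi16* was -0.87 and -1.41 and complement -0.98 against progenitors. Without possible doublets, complement was -0.73 and -0.92, and *Sorbs2* against progenitors -0.20. With no filter glucocorticoid was 0.07. Inside the gate complement was -0.97, the pericyte list -0.03, *Fmod* -1.52 and *Sorbs2* -0.29. In cells at or below the median heat shock share, an alternative chosen after seeing the data like the gate, glucocorticoid was 0.19, fibrillar matrix 0.18, *Pi16* -0.36 and -1.13 and complement -0.05. The causes were not tested.

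In the order d0, d3 fracture, labelled d5 fracture, labelled d3 polytrauma and d5 polytrauma, the shares by the rule, given in the report at 1000 UMIs per cell, were 16.3, 2.97, 2.32, 17.0 and 3.04% without thinning. Thinned to 1000 UMIs with at least 2 genes they were 11.8, 0.483, 0.242, 0.409 and 0.251%. Thinned to 2000 UMIs with at least 3 they were 9.93, 0.224, 0.0163, 0.417 and 0.0695%. Detection of sparse genes at 1000 UMIs limits these shares.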
